A study of Mus musculus with 12 samples.

Results

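Glutathione and peroxide detoxification genes were followed in mouse total RNA on 12 Affymetrix arrays, which fall into 6 groups of 2 (replicates a and b). The genes were chosen by symbol, with earlier results of these data known. They comprise the glutathione S-transferases (symbols beginning Gsta, Gstm, Gstp, Gstt, Gsto, Gstk or Gstz), the glutathione peroxidases (Gpx), the peroxiredoxins (Prdx) and 11 genes named singly (Gclc, Gclm, Gss, Gsr, Cat, Sod1, Sod2, Sod3, Nqo1, Hmox1 and Txnrd1). Of 18194 genes with a probe set naming no other gene, 42 met this rule. Gsta1 and Prdx1 lay on probe sets that also name other genes and were not analysed here. Smad3-/- mice, whose strain the labels give as a mixture of NIH Black Swiss females with C57BL/6, ate a high fat diet (KO_HFD) or a regular diet (KO_RD), and wild-type C57BL/6 mice were on the same diets (WT_HFD and WT_RD). The high fat diet held 55% fat. In a separate experiment, C57J/B6 mice labelled as diet induced obese, for which the treatment protocol names that diet too, were injected intraperitoneally, 3 times weekly over 8 weeks, with anti-TGF-beta (catalogue number 1D11, ATGF) or with IgG (catalogue number 13C4, IgG). Strain background went with genotype, so the effects of strain and Smad3 cannot be told apart.

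Cells carry glutathione, a small thiol peptide, as their main soluble antioxidant. Glutamate-cysteine ligase (Gclc and Gclm) and glutathione synthetase (Gss) make it, glutathione peroxidases spend it to reduce peroxides, glutathione reductase (Gsr) regenerates it, and glutathione S-transferases join it to reactive lipids and foreign compounds. Superoxide dismutases turn superoxide into hydrogen peroxide, which catalase, the glutathione peroxidases and the peroxiredoxins remove. In fat tissue these enzymes handle the peroxides and lipid aldehydes that arise from fatty acid oxidation and from storing large amounts of lipid, and NRF2 (encoded by Nfe2l2) drives many of the genes through the antioxidant response element.

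No label names the tissue. Adipoq, the adiponectin gene of fat cells, had log2 values between 13.01 and 14.18 on the 12 arrays, against array medians over genes of 6.96 to 7.05. Over genes, the 2 arrays of each group had correlations of 0.992 to 0.996. The antibody arrays had a wider spread of values (SD over genes 2.22 to 2.26) than the diet and genotype arrays (1.60 to 1.73), so levels are compared only within an experiment. All values are log2 RMA values, and every difference below is on that log2 scale with its SE. Whether replicates a and b are different animals is not stated, and p-values therefore measure how far these arrays spread, a spread that may be technical only. In tissue RNA, fewer cells of a type and less RNA per cell cannot be told apart. None of 3 Smad3 probe sets passed the test for genotype (log2 differences from -0.06 to 0.39), and the position of these probe sets relative to the disruption was not known, so they check nothing about the genotype. Knockout is used for the libraries with the Smad3-/- label. The Gapdh probe sets at the 3' end exceeded those at the 5' end, a sign of RNA quality, by 0.28 to 0.50 log2 on the KO_HFD, WT_HFD and KO_RD arrays and by 0.12 and 0.14 on the WT_RD arrays.

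Of the 42 genes, 6 (Gpx2, Gss, Gsta2, Gstm3, Gstp3 and Gstt4) passed the test in none of the 5 comparisons of a pair of groups. Another 5 (Gclm, Gstk1, Gstm2, Gstm5 and Gstt2) passed in all 5. Neither count was taken over all genes, so they name genes and give no result about the set. For genotype on the regular diet (KO_RD against WT_RD), 11 genes were higher and 11 lower at a limma adjusted p under 0.05. These 22 are 52.4% of the 42, where 24.0% of all 18194 genes passed, 8.4% higher and 15.6% lower. For genotype on the high fat diet (KO_HFD against WT_HFD), 7 were higher and 13 lower, or 47.6% against 10.8% of all genes (4.74% higher and 6.05% lower). With the antibody (ATGF against IgG), 15 were higher and 7 lower, 52.4% against 24.3% of all genes (11.7% higher and 12.6% lower). The high fat diet in wild type (WT_HFD against WT_RD) had 13 higher and 4 lower, 40.5% against 10.8% of all genes (4.69% higher and 6.11% lower). In the knockout (KO_HFD against KO_RD) 15 were higher and 8 lower, 54.8% against 17.3% of all genes (11.5% higher and 5.82% lower). The arrays of the groups did not overlap for 35, 30, 36, 31 and 38 of the 42 in these comparisons, in the order given. That was 83.3%, 71.4%, 85.7%, 73.8% and 90.5%, against 59.3%, 48.0%, 60.2%, 47.8% and 52.9% of all genes. Bright probe sets pass more often. Among the 10916 genes above the 40th percentile of level, 36.2%, 17.3%, 31.9%, 16.8% and 27.4% passed in these comparisons, in the order given, against 59.5%, 56.8%, 56.8%, 45.9% and 64.9% of the 37 detoxification genes among them. The medians of the 42 differences lay between -0.11 and 0.13 in the 5 comparisons, against -0.01 to 0.04 for all genes. Quantile normalization applied again changed the split of all called genes to 46.9% higher for genotype on the regular diet, against 35.0% without it, and to 55.9% higher for diet in the knockout, against 66.4%. These comparisons are not independent, because WT_RD serves in the genotype comparison on regular diet and in the diet comparison in wild type, and each other diet group also serves in a pair of them.

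**Figure D1:**
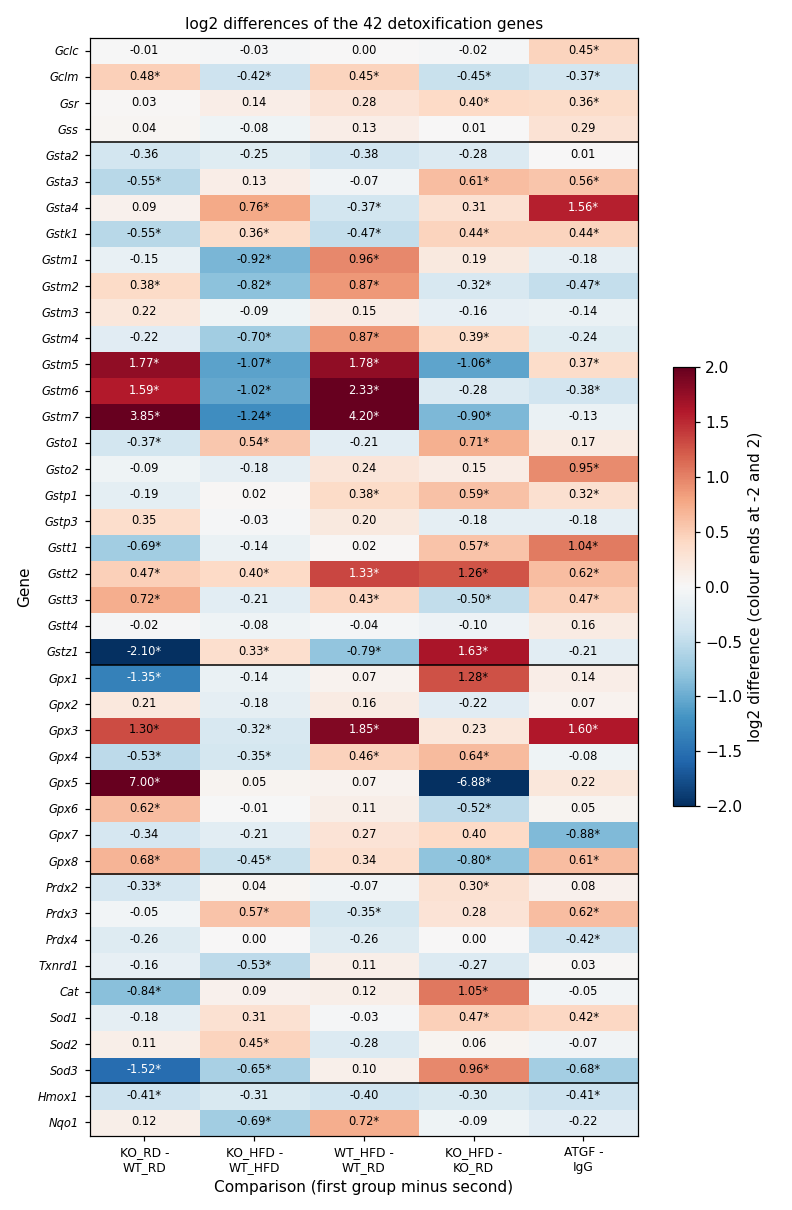
Log2 difference of each of the 42 genes (rows, grouped by role) in 5 comparisons (columns, first group minus second), with an asterisk where limma's adjusted p was under 0.05. Red is higher and blue lower in the first group, and the strongest cells belong to Gpx5, Gstm7, Gstm6, Gstz1 and Gpx3.

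The mu-class glutathione S-transferases are a cluster of 7 neighbouring genes on chromosome 3. Among them were the largest diet responses in wild type of the 42 genes, those of Gstm7 and Gstm6 on the probe sets used. Their order along the chromosome is Gstm5, Gstm7, Gstm6, Gstm3, Gstm2, Gstm1 and Gstm4, with 0 other protein-coding genes between neighbours in the GRCm38.p6 gene table. These enzymes conjugate glutathione to electrophiles such as lipid aldehydes. The promoter windows of the 3 genes at one end of the cluster are shown because these 3 changed most. RefSeq's GRCm38.p6 table gives 250 bases before to 50 after the gene start for Gstm5 (chr3:107895604-107895903, plus strand), Gstm7 (chr3:107931565-107931864, minus strand) and Gstm6 (chr3:107953417-107953716, minus strand), 5' to 3', with matches to TGACNNNGC, the core of the antioxidant response element, in capitals on either strand.
Gstm5: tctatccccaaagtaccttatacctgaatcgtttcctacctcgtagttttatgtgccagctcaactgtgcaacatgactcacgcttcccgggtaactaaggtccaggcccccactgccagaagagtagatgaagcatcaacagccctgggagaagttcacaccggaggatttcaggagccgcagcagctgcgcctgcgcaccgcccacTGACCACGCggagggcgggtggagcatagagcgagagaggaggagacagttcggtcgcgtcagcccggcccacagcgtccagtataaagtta
Gstm7: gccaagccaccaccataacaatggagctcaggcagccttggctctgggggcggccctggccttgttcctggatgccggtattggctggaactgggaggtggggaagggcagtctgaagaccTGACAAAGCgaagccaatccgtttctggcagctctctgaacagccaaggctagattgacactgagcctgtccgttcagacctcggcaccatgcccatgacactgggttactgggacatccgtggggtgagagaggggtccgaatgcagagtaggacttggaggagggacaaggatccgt
Gstm6: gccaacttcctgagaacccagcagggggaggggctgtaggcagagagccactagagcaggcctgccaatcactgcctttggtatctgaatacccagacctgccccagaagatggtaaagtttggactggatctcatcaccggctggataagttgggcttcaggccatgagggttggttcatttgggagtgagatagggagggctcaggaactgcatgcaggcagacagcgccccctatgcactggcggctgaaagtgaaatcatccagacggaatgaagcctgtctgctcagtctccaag
Gstm5 had 1 match, at position -42 from its start. Gstm7 had 1 match in the later of its 2 listed windows, and Gstm6 had 0 in its 3. No window was listed for 6 of the 42 genes (Gclc, Gsr, Gsta4, Gstt2, Hmox1 and Sod3), which were not searched. Of the 36 detoxification genes with a window, 6 held the motif (Gclm, Gsta3, Gstm5, Gstm7, Sod1 and Txnrd1). By window this was 12.2% of 49, against 12.4% of 32851 windows of all genes, so the share among these genes was that of promoters in general. A match to letters is not shown to be a bound site.

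Gstm7 had log2 values of 10.61 and 10.78 in KO_HFD, 11.81 and 12.07 in WT_HFD, 11.54 and 11.65 in KO_RD, and 7.84 and 7.64 in WT_RD. The WT_RD arrays lay far below all others of that experiment. In wild type the high fat diet raised it by 4.2 ± 0.11 (SE, n = 2 arrays a group, limma adjusted p = 9.4e-21), or 18.3-fold. On the regular diet the knockout exceeded wild type by 3.85 ± 0.11 (limma adjusted p = 2e-20), and on the high fat diet 1.24 ± 0.11 lower (value -1.24, limma adjusted p = 3.07e-09). The second, dimmer Gstm7 probe set did not pass in any of these, with 0.28 ± 0.13 for diet in wild type, 0.33 ± 0.13 for genotype on regular diet and -0.17 ± 0.13 on high fat diet, so the 2 probe sets disagree on the size of the change.

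The neighbours Gstm5 and Gstm6 had the same low group. Gstm6 had 8.55 and 8.70 in KO_HFD, 9.58 and 9.71 in WT_HFD, 9.10 and 8.71 in KO_RD, and 7.28 and 7.34 in WT_RD. Gstm5 had 8.82 and 9.05 in KO_HFD, 9.86 and 10.16 in WT_HFD, 10.01 and 10.00 in KO_RD, and 8.19 and 8.27 in WT_RD. For both genes the WT_RD arrays were again the lowest and did not overlap any other group, while the WT_HFD and KO_RD arrays of Gstm5 overlapped. Diet in wild type raised Gstm6 by 2.33 ± 0.12 and Gstm5 by 1.78 ± 0.11, and on the regular diet the knockout exceeded wild type by 1.59 ± 0.12 and 1.77 ± 0.11 (limma adjusted p at most 3.71e-11 for these 4).

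Gstm1, Gstm2 and Gstm4, at the other end of the cluster, stood out in WT_HFD instead. Gstm1 had 12.57 and 12.58 in KO_HFD, 13.48 and 13.52 in WT_HFD, 12.46 and 12.32 in KO_RD, and 12.55 and 12.52 in WT_RD. Only the WT_HFD arrays were raised. Diet in wild type raised Gstm1 by 0.96 ± 0.10, Gstm2 by 0.87 ± 0.11 and Gstm4 by 0.87 ± 0.11 (limma adjusted p at most 1.38e-06), and all 4 Gstm1 probe sets gave 0.77 to 1.03. Gstm3, between these genes and the first 3, did not pass (0.15 for diet in wild type). On the high fat diet 6 of the 7 genes were lower in the knockout than in wild type, where 6.05% of all genes passed as lower. Gstm3 was the exception, and the median over the 7 was -0.92. Gstm2 was also higher in KO_RD than in WT_RD, by 0.38 ± 0.11 (limma adjusted p = 0.0127). That call was lost without WT_RD replicate a or b or KO_RD replicate a. In the knockout the diet lowered Gstm5, Gstm7 and Gstm2 (-1.06, -0.90 and -0.32) and raised Gstm4 by 0.39, and the calls of Gstm2 (without any of the 4 arrays) and Gstm4 (without KO_RD replicate b or KO_HFD replicate b) were lost, with adjusted p up to 0.239 and 0.187.

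**Figure D2:**
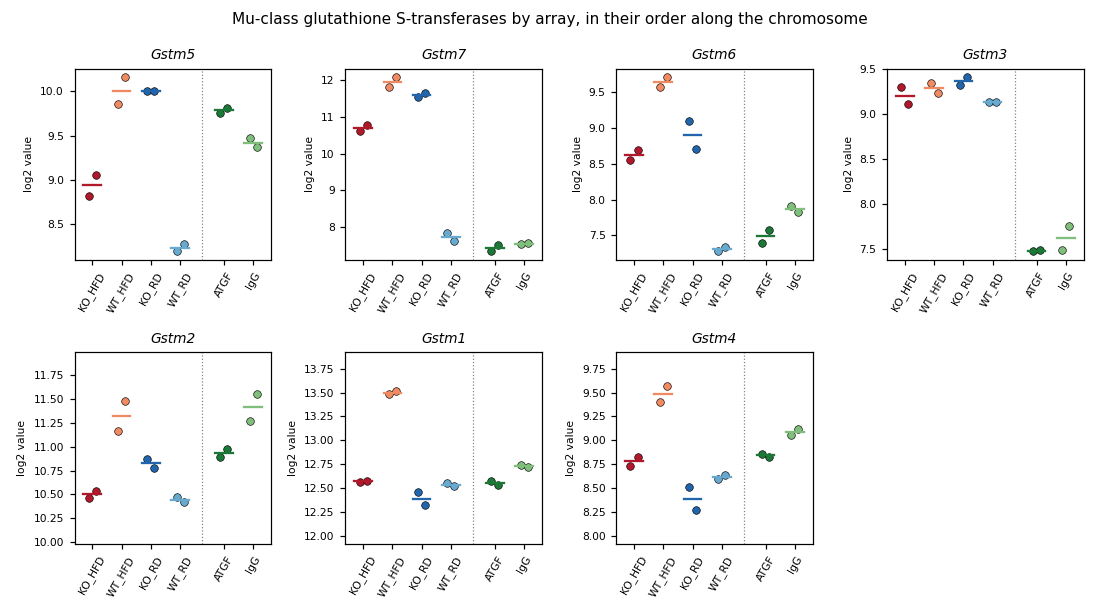
Log2 value of each mu-class gene (panels, in chromosome order; each vertical axis has its own range) on the 2 arrays of each group, with a line at the mean; the dotted line parts the antibody experiment. Gstm5, Gstm7 and Gstm6 are lowest in WT_RD, whereas Gstm2, Gstm1 and Gstm4 are highest in WT_HFD among the diet and genotype groups.

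Genes of other cell types moved beside this cluster. Cuzd1, a gene of the epididymal epithelium, had 12.07 and 12.16 in KO_HFD, 12.98 and 13.08 in WT_HFD, 12.56 and 12.43 in KO_RD, and 6.47 and 6.28 in WT_RD. From high to low the groups stood as for Gstm7: WT_HFD, KO_RD, KO_HFD and WT_RD. The other epididymal markers listed did not have this order, and their highest mean was in KO_RD. Lcn8, for example, had 13.77 and 13.76 in KO_RD against 5.36 and 5.28 in WT_HFD. Of 9 epididymal markers, 9 were higher in KO_RD than in WT_RD, 5 were higher in WT_HFD than in WT_RD, and 4 were lower in KO_HFD than in WT_HFD. Their mean level per array was 6.46 to 6.67 in KO_HFD, 7.26 and 7.31 in WT_HFD, 11.18 and 11.21 in KO_RD, and 5.34 and 5.40 in WT_RD. General epithelial markers (Krt8, Krt18, Epcam, Cdh1 and Cldn4) averaged 7.86 in KO_HFD, 8.69 and 8.92 in WT_HFD, 8.85 and 9.04 in KO_RD, and 7.80 and 8.00 in WT_RD. Of these 5 markers, 4 were higher in KO_RD than in WT_RD, 3 higher in WT_HFD than in WT_RD, and 3 lower in KO_HFD than in WT_HFD. The part of these cells in the Gstm differences was not tested.

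In the antibody experiment the cluster changed little. Gstm7 was 7.35 and 7.52 with the antibody and 7.55 and 7.57 with IgG, a difference of -0.13 ± 0.11 that did not pass. Gstm2 fell by 0.47 and Gstm6 by 0.38, while Gstm5 rose by 0.37 (limma adjusted p = 0.00203, 0.0258 and 0.0157). Each of these calls was lost without 1 array: Gstm2 without IgG replicate b (adjusted p = 0.0886), Gstm6 without IgG replicate a or b or ATGF replicate a (up to 0.221), and Gstm5 without IgG replicate b or either ATGF array (up to 0.126). The epididymal markers were at 4.57 and 4.65 with the antibody and 4.54 and 4.55 with IgG, well under the array medians.

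Among the other glutathione S-transferases was Gstz1, which of the 42 genes had the largest fall in the knockout on regular diet. Gsta4 had the largest rise among transferases with the antibody. Gstz1, the maleylacetoacetate isomerase of tyrosine breakdown, had 11.25 and 11.40 in KO_HFD, 10.93 and 11.07 in WT_HFD, 9.74 and 9.64 in KO_RD, and 11.69 and 11.89 in WT_RD. The KO_RD arrays lay below every other group. It fell by 2.10 ± 0.10 (limma adjusted p = 2.28e-15), or 4.27-fold, in KO_RD against WT_RD. The diet raised it by 1.63 ± 0.10 in the knockout and lowered it in wild type (-0.79 ± 0.10). On the high fat diet it was 0.33 ± 0.10 higher in the knockout (limma adjusted p = 0.0384), a call lost without WT_HFD replicate a or either KO_HFD array (up to 0.313).

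Gsta4, the alpha-class enzyme that conjugates 4-hydroxynonenal from oxidised lipids, had 9.73 and 9.73 with the antibody and 8.23 and 8.11 with IgG. It rose by 1.56 ± 0.12 (limma adjusted p = 3.23e-11), or 2.95-fold. In the other experiment it had 8.39 and 8.66 in KO_HFD against 7.69 and 7.84 in WT_HFD, a rise of 0.76 ± 0.12 (limma adjusted p = 2.72e-05). In KO_RD against WT_RD it did not pass (0.09 ± 0.12). In wild type it was 0.37 lower on the high fat diet (-0.37 ± 0.12), a call lost without any 1 of the 4 arrays (adjusted p up to 0.314).

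The theta-class genes Gstt3, Gstt1, Gstt4 and Gstt2 lie next to each other on chromosome 10. With the antibody 3 of the 4 rose, where 11.7% of all genes passed as higher. Gstt1 had 10.02 and 10.01 with the antibody and 9.07 and 8.88 with IgG, a rise of 1.04 ± 0.11 (limma adjusted p = 5.44e-08). Gstt2 rose by 0.62 ± 0.13 and Gstt3 by 0.47 ± 0.13, the Gstt3 call being lost without IgG replicate a (adjusted p = 0.085). Gstt2 also rose with the diet in both genotypes. It had 9.28 and 9.54 in KO_HFD, 8.88 and 9.14 in WT_HFD, 8.36 and 7.93 in KO_RD, and 7.67 and 7.68 in WT_RD. The diet raised it by 1.26 ± 0.13 in the knockout and by 1.33 ± 0.13 in wild type. It was also higher in the knockout on both diets, by 0.47 ± 0.13 on the regular diet (call lost without KO_RD replicate a, adjusted p = 0.204) and 0.40 ± 0.13 on the high fat diet (lost without WT_HFD replicate a or KO_HFD replicate b, up to 0.404). Gstt1 and Gstt3 parted on the regular diet, where Gstt1 fell by 0.69 and Gstt3 rose by 0.72 in the knockout (limma adjusted p = 2.57e-05 and 5.33e-05). The diet in the knockout raised Gstt1 by 0.57 and lowered Gstt3 (-0.50), and the diet in wild type raised Gstt3 by 0.43. The Gstt3 calls for diet were lost without KO_RD replicate a or KO_HFD replicate b in the knockout (up to 0.133) and without any 1 of the 4 arrays in wild type (up to 0.135).

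Gstk1, the kappa-class transferase of mitochondria and peroxisomes, passed in every comparison. It had 8.64 and 8.65 in KO_HFD, 8.12 and 8.44 in WT_HFD, 8.25 and 8.15 in KO_RD, 8.76 and 8.74 in WT_RD, 9.95 and 9.95 with the antibody, and 9.48 and 9.54 with IgG. It was lower in the knockout on regular diet (-0.55 ± 0.11) and higher in it on high fat diet (0.36 ± 0.11), and rose by 0.44 ± 0.11 with the antibody. The diet raised it by 0.44 in the knockout and lowered it in wild type (-0.47). The calls on high fat diet (without WT_HFD replicate a or either KO_HFD array), for diet in wild type (without WT_HFD replicate a) and for diet in the knockout (without KO_RD replicate b) were lost, with adjusted p up to 0.432, 0.152 and 0.0522.

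Of the remaining transferases, Gsta3 and Gsto1 were lower in KO_RD than in WT_RD (-0.55 ± 0.12 and -0.37 ± 0.10) and higher in KO_HFD than in KO_RD (0.61 and 0.71). The second Gsta3 probe set, of similar brightness, gave larger values of -1.66 and 1.35. Gsto1, an omega-class enzyme, was also 0.54 ± 0.10 higher in KO_HFD than in WT_HFD, and its call on regular diet was lost without WT_RD replicate a or KO_RD replicate a (adjusted p up to 0.0577). Gsta3 and Gsto2 rose with the antibody by 0.56 ± 0.12 and 0.95 ± 0.17, Gsto2 at levels under the array median in every group. Gsto2 had 6.01 and 6.2 with the antibody and 5.52 and 4.80 with IgG, and without IgG replicate b its difference was 0.59 (limma adjusted p = 0.0138). Gstp1, the pi-class enzyme, rose with the diet by 0.59 ± 0.10 in the knockout and 0.38 ± 0.10 in wild type, and with the antibody by 0.32 ± 0.10. The wild-type call was lost without WT_HFD replicate b or either WT_RD array (up to 0.202), and the antibody call without any 1 of the 4 arrays (up to 0.146). Gpx2, Gsta2, Gsto2, Gstp3 and Gstt4 were under the array median in all 6 groups.

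The glutathione peroxidases gave the largest difference of all 42 genes. Gpx5, a secreted peroxidase of the epididymis, had 7.00 and 7.09 in KO_HFD, 7.15 and 6.85 in WT_HFD, 13.77 and 14.09 in KO_RD, and 7.10 and 6.76 in WT_RD. It was far above the array medians in KO_RD and close to them in the other 3 groups. The difference of KO_RD from WT_RD was 7.00 ± 0.14 (limma adjusted p = 5.34e-24). Its mean in WT_RD was under the array median and was not shown to be above background, so no fold is given. Its neighbour on chromosome 13, Gpx6, was higher in KO_RD too, at 8.78 and 8.94 against 8.33 and 8.16 in WT_RD, by 0.62 ± 0.14 (limma adjusted p = 0.000996). The epididymal markers rose with them, 9 of 9, among them Lcn5, an epididymal lipocalin, with 14.01 and 14.04 in KO_RD against 5.05 and 5.22 in WT_RD. Their part in the other differences of KO_RD was not tested, and KO_RD has no arrays without this signal. Brown fat markers were also higher in KO_RD than in WT_RD, 6 of 8. The fall of Gpx6 with diet in the knockout (-0.52 ± 0.14) lost its call without KO_RD replicate b or KO_HFD replicate b (adjusted p up to 0.102).

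Gpx3, the peroxidase secreted into plasma and abundant in fat tissue, rose most with the antibody among the 42 genes. It had 13.14 and 13.03 with the antibody and 11.58 and 11.38 with IgG, a difference of 1.60 ± 0.10 (limma adjusted p = 7.54e-13), or 3.04-fold. In the diet and genotype experiment it had 13.13 and 13.14 in KO_HFD, 13.46 and 13.45 in WT_HFD, 12.96 and 12.85 in KO_RD, and 11.60 and 11.60 in WT_RD. As with Gstm7, the WT_RD arrays were apart from the other 3 groups. The diet in wild type raised it by 1.85 ± 0.10, or 3.61-fold, and on the regular diet the knockout exceeded wild type by 1.3 ± 0.10. On the high fat diet it was lower in the knockout (-0.32 ± 0.10, limma adjusted p = 0.0398), a call lost without any 1 of the 4 arrays (up to 0.216). In the knockout the diet difference was 0.23 ± 0.10 and did not pass.

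The promoter windows of Gpx3 (chr11:54902604-54902903, plus strand) and Gpx5 (chr13:21292637-21292936, minus strand) are shown because these peroxidases changed most. They are from RefSeq's GRCm38.p6 table and held 0 matches to TGACNNNGC.
Gpx3: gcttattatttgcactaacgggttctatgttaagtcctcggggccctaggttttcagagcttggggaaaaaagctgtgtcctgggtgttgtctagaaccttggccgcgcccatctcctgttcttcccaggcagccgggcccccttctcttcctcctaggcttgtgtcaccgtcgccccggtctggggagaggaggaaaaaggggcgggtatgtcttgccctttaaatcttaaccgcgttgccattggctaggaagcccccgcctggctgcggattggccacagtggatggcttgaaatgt
Gpx5: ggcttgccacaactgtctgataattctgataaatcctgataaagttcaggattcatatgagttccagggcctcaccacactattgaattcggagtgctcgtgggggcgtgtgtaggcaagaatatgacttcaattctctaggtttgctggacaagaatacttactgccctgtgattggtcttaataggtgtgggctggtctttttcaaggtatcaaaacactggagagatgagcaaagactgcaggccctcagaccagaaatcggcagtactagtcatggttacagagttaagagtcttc

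Gpx1, the main peroxidase of the cytosol, and Gpx4, which reduces lipid peroxides within membranes, were lowest in KO_RD. Gpx1 had 12.83 and 12.93 in KO_HFD, 12.99 and 13.05 in WT_HFD, 11.78 and 11.41 in KO_RD, and 12.96 and 12.94 in WT_RD. It fell by 1.35 ± 0.11 in KO_RD against WT_RD (limma adjusted p = 1.07e-10) and the diet raised it by 1.28 ± 0.11 in the knockout. Markers of other cells moved with the diet in the knockout. All 12 skeletal muscle markers were higher in KO_HFD than in KO_RD, as were 7 of 8 white adipocyte and 4 of 5 endothelial markers, while 8 of 9 epididymal markers were lower. The part of these cells in the KO_HFD differences was not tested. Gpx4 had 12.89 and 12.96 in KO_HFD, 13.18 and 13.37 in WT_HFD, 12.37 and 12.20 in KO_RD, and 12.86 and 12.76 in WT_RD. It fell by 0.53 ± 0.10 in KO_RD, and the diet raised it by 0.64 ± 0.10 in the knockout and 0.46 ± 0.10 in wild type. On the high fat diet Gpx4 was lower in the knockout (-0.35 ± 0.10), a call lost without WT_HFD replicate b or either KO_HFD array (adjusted p up to 0.234), and its diet call in wild type was lost without WT_RD replicate b (0.0708). Neither Gpx1 nor Gpx4 passed with the antibody (0.14 ± 0.11 and -0.08 ± 0.10). A second, equally bright Gpx4 probe set gave -0.27 ± 0.10 for genotype on the high fat diet and did not pass (limma adjusted p = 0.142 over all probe sets).

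Gpx7 and Gpx8, peroxidases of the endoplasmic reticulum, went opposite ways with the antibody. Gpx7 had 7.84 and 8.03 with the antibody and 9.02 and 8.61 with IgG, a fall of 0.88 (value -0.88 ± 0.14, limma adjusted p = 2.73e-05). Gpx8 had 8.70 and 9.12 with the antibody and 8.35 and 8.24 with IgG, a rise of 0.61 ± 0.14 that lost its call without ATGF replicate b (adjusted p = 0.0833). Gpx8 was also higher in KO_RD than in WT_RD (0.68 ± 0.14) and lower in KO_HFD than in KO_RD (-0.80 ± 0.14) and than in WT_HFD (-0.45 ± 0.14). The last of these calls was lost without any 1 of the 4 arrays (up to 0.204), and Gpx8 was under the array median in these groups.

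Catalase and the extracellular superoxide dismutase fell in KO_RD against WT_RD. Cat had 11.17 and 11.17 in KO_HFD, 11.08 and 11.09 in WT_HFD, 10.00 and 10.24 in KO_RD, and 10.67 and 11.25 in WT_RD. The WT_RD arrays had an SD of 0.42, and both KO_RD arrays were below them. Cat fell by 0.84 ± 0.13 in KO_RD against WT_RD (limma adjusted p = 9.92e-06), the diet raised it by 1.05 ± 0.13 in the knockout, and its second probe set gave -1.10 ± 0.11 and 1.15 ± 0.11. Without WT_RD replicate b the genotype difference was -0.55 (limma adjusted p = 0.00321). Genotype on the high fat diet (0.09), diet in wild type (0.12) and the antibody (-0.05) did not pass.

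Sod3, the dismutase of the extracellular matrix, passed the test as lower in all 3 comparisons that set the knockout or the antibody against its control. Of the 41 other genes none passed as lower in all 3, though Gpx4, Gpx7, Gstm1, Gstm4 and Hmox1 had negative differences in each. It had 9.03 and 9.01 in KO_HFD against 9.47 and 9.87 in WT_HFD, 8.04 and 8.07 in KO_RD against 9.51 and 9.64 in WT_RD, and 10.91 and 10.91 with the antibody against 11.57 and 11.60 with IgG. The groups did not overlap in any of the 3. It fell by 1.52 ± 0.11 on the regular diet, 0.65 ± 0.11 on the high fat diet and 0.68 ± 0.11 with the antibody (limma adjusted p = 1.27e-11, 0.000106 and 3.28e-05), and its second probe set gave -1.72, -0.78 and -0.70. Macrophage markers were lower in the same comparisons, 7 of 11 (1 higher), 7 of 11 and 11 of 11. Their mean level was 7.53 and 7.66 in KO_RD against 8.25 and 8.26 in WT_RD, and 7.81 and 7.97 in KO_HFD against 8.69 and 8.80 in WT_HFD, and their part in the Sod3 differences was not tested.  In the knockout the diet raised Sod3 by 0.96 ± 0.11, and in wild type the diet difference was 0.10 ± 0.11.

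For the intracellular dismutases the probe sets of a gene differed. Sod1, the cytosolic enzyme, had 13.39 and 13.30 with the antibody and 12.95 and 12.90 with IgG, a rise of 0.42 ± 0.12 (limma adjusted p = 0.00873) that was lost without IgG replicate b or ATGF replicate a (up to 0.0985). Its 4 other probe sets gave 0.97, 0.20, 0.13 and -0.07, of which the first passed (limma adjusted p = 1.1e-05 over all probe sets). For genotype on the regular diet Sod1 did not pass (-0.18 ± 0.12), while its second brightest probe set gave -0.61 (limma adjusted p = 0.000307 over all probe sets). The diet in the knockout raised it by 0.47 ± 0.12, a call lost without KO_RD replicate b or KO_HFD replicate b (up to 0.15). Sod2, the mitochondrial enzyme, had 11.61 and 11.71 in KO_HFD against 11.12 and 11.30 in WT_HFD, a rise of 0.45 ± 0.10 (limma adjusted p = 0.00333) that was lost without WT_HFD replicate a or KO_HFD replicate b (up to 0.063). Of its 3 other probe sets, 2 passed at 0.62 and 0.80 (limma adjusted p = 0.000519 and 0.000925 over all probe sets) and the dimmest gave -0.19.

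**Figure D3:**
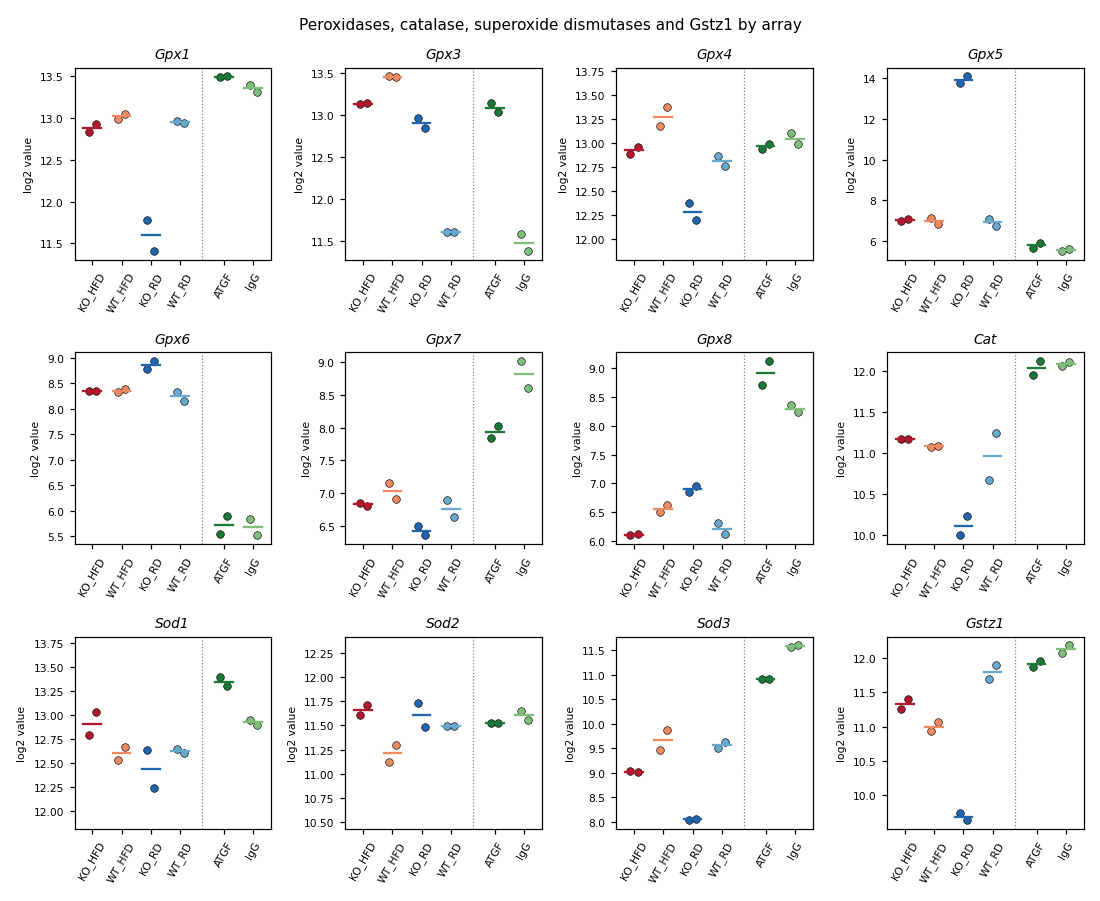
Log2 value of the glutathione peroxidases, catalase, superoxide dismutases and Gstz1 (panels; each vertical axis has its own range) on the 2 arrays of each group, with a line at the mean. Gpx5 is high in KO_RD alone, Gpx3 is low in WT_RD and IgG, and Gpx1, Gpx4, Cat, Sod3 and Gstz1 are lowest in KO_RD among the diet and genotype groups.

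Of the glutathione-making genes, Gclm passed in every comparison and Gclc in 1, on the probe sets used. Gclm, the modifier subunit of glutamate-cysteine ligase, had 8.88 and 9.16 in KO_HFD, 9.46 and 9.42 in WT_HFD, 9.47 and 9.46 in KO_RD, and 9.23 and 8.75 in WT_RD. It was higher in the knockout on regular diet (0.48 ± 0.12), lower in it on high fat diet (-0.42 ± 0.12), higher with the diet in wild type (0.45 ± 0.12) and lower with it in the knockout (-0.45 ± 0.12). Without WT_RD replicate b the regular diet call was lost (adjusted p = 0.257), as were the other 3 without WT_HFD replicate a or b or KO_HFD replicate a (up to 0.389), without WT_RD replicate b or either WT_HFD array (up to 0.483) and without KO_RD replicate a or KO_HFD replicate a (up to 0.213). With the antibody Gclm had 10.07 and 10.09 against 10.47 and 10.43 with IgG, and fell by 0.37 (limma adjusted p = 0.0276, up to 0.126 without any 1 of the 4 arrays). Gclc, the catalytic subunit, had 8.6 and 8.54 with the antibody and 8.22 and 8.03 with IgG. It rose by 0.45 ± 0.11 (limma adjusted p = 0.00382), a call lost without IgG replicate b. After quantile normalization applied again it rose by 0.31 and did not pass (limma adjusted p = 0.062). Its 4 other differences lay between -0.03 and 0.00. A second Gclc probe set gave -0.29 to -0.07 in those 4, none passing, and 0.38 ± 0.12 with the antibody (limma adjusted p = 0.0187 over all probe sets). The second, dimmer Gclm probe set gave 0.23, -0.37, 0.46 and -0.14 for the 4 comparisons above, none passing. With the antibody it gave -0.77 ± 0.18 (limma adjusted p = 0.0024 over all probe sets). The subunits of the same enzyme thus went opposite ways with the antibody on both probe sets of each. Gsr rose by 0.36 ± 0.12 with the antibody and by 0.40 ± 0.12 with the diet in the knockout, and lost these calls without any 1 of the 4 arrays (up to 0.136) and without either KO_RD array or KO_HFD replicate b (up to 0.256). For diet in wild type Gsr had 0.28 ± 0.12 and did not pass, while its second probe set gave 0.44 ± 0.12 (limma adjusted p = 0.0181 over all probe sets). Gss had differences from -0.08 to 0.29 and passed in none on the probe set used. Its second, dimmer probe set rose by 0.46 ± 0.13 with the antibody (limma adjusted p = 0.0105 over all probe sets).

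The Gclm promoter window (chr3:122245307-122245606, plus strand, from the same RefSeq table) is shown because it held a match to the response element core. The match lay on the opposite strand, at position -134 from the gene start. Of the other glutathione-making genes, Gss had a window without a match and Gclc had no window.
Gclm: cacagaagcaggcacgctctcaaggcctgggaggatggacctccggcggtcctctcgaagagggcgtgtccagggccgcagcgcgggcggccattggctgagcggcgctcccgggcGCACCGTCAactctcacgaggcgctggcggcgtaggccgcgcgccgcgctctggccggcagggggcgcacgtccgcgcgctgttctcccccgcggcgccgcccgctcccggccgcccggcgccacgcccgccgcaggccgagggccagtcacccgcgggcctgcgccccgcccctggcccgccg

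Peroxiredoxins reduce peroxides with electrons from thioredoxin, which Txnrd1 recharges. Prdx3, the mitochondrial one, had 9.81 and 10.00 in KO_HFD against 9.23 and 9.43 in WT_HFD, and 11.11 and 11.04 with the antibody against 10.44 and 10.47 with IgG. It rose by 0.57 ± 0.11 and 0.62 ± 0.11 (limma adjusted p = 0.000401 and 7.34e-05). On the high fat diet in wild type it was lower (-0.35 ± 0.11), a call lost without WT_HFD replicate a or either WT_RD array (up to 0.327). Prdx4, of the endoplasmic reticulum, had 9.35 and 9.51 with the antibody and 9.82 and 9.87 with IgG and fell by 0.42, a call lost without IgG replicate b or ATGF replicate a (up to 0.128), while its 3 other probe sets gave -0.43 (limma adjusted p = 0.0468 over all probe sets), -0.06 and 0.02. Prdx2, of the cytosol, was 0.33 lower in KO_RD than in WT_RD (value -0.33 ± 0.10, limma adjusted p = 0.0152). That call was lost without either WT_RD array (up to 0.0842), and after quantile normalization applied again the difference was 0.02. The rise of Prdx2 with diet in the knockout (0.30 ± 0.10) was lost without either KO_RD array or KO_HFD replicate b (up to 0.412), and was 0.04 after that normalization. Txnrd1 was lower in KO_HFD than in WT_HFD, at 7.74 and 7.81 against 8.34 and 8.28 (-0.53 ± 0.11, limma adjusted p = 0.00116), but its other 2 probe sets gave 0.08 and 0.06.

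Nqo1, the quinone reductase that is a standard NRF2 target, followed the Gstm1 pattern. It had 6.93 and 6.93 in KO_HFD, 7.48 and 7.76 in WT_HFD, 7.03 and 7.02 in KO_RD, and 6.84 and 6.97 in WT_RD. Only WT_HFD was raised, by 0.72 ± 0.13 over WT_RD (limma adjusted p = 0.000293), and KO_HFD was lower than WT_HFD (-0.69 ± 0.13, limma adjusted p = 0.00048). Its levels lay close to the array medians. Hmox1, heme oxygenase 1, had 6.19 and 6.06 in KO_RD against 6.67 and 6.41 in WT_RD, and 8.71 and 8.76 with the antibody against 9.07 and 9.21 with IgG. Both differences were -0.41 ± 0.15 (limma adjusted p = 0.0433 and 0.0445), and the calls were lost without WT_RD replicate a or either KO_RD array (up to 0.355) and without any 1 of the 4 antibody arrays (up to 0.227).

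**Figure D4:**
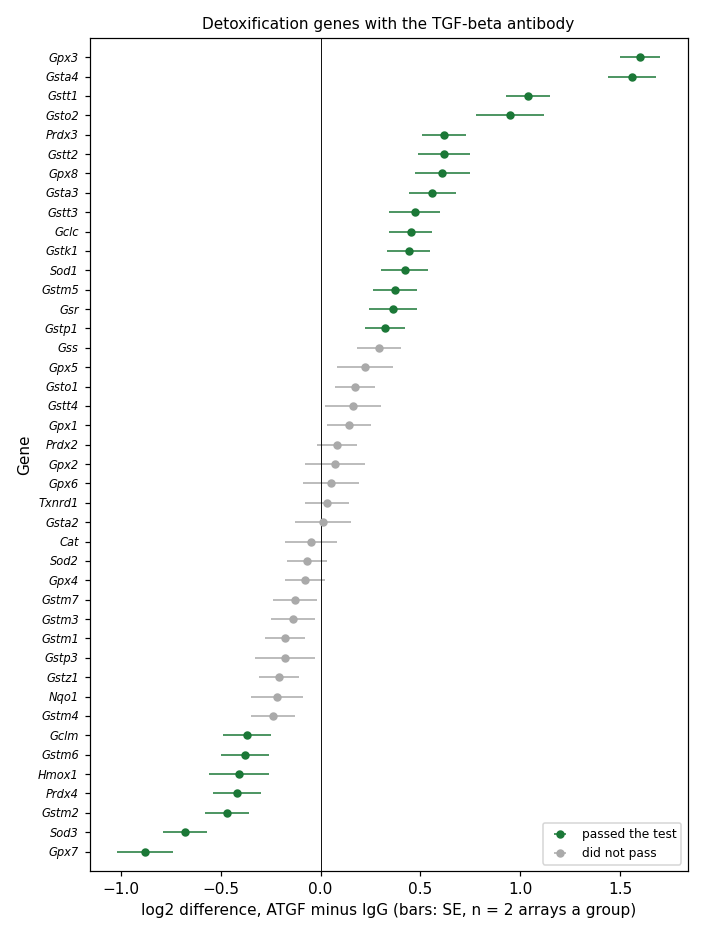
Log2 difference of each of the 42 genes between ATGF and IgG, with SE bars (n = 2 arrays a group), green where limma's adjusted p was under 0.05 and grey otherwise. Gpx3 and Gsta4 lie farthest to the right, and Gpx7 and Sod3 farthest to the left.

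The genotype difference depended on diet for many of the genes. A test of the difference itself (the interaction of genotype and diet) passed for 24 of the 42, or 57.1%, against 18.8% of all genes (12.0% higher and 6.77% lower). Of the 24, 11 were higher and 13 lower. The knockout minus wild type difference was higher on the high fat diet than on the regular diet for Gstz1 (by 2.42), Gpx1 (1.21), Cat (0.93), Gsto1 (0.92), Gstk1 (0.91) and Sod3 (0.86). It was lower for Gpx5, Gstm7, Gstm5, Gstm6, Gpx3 and Gstm2 (-6.95, -5.09, -2.84, -2.62, -1.62 and -1.19), but the second Gstm7 probe set gave -0.50 and did not pass (limma adjusted p = 0.0792 over all probe sets). Cell type markers moved in the same test, with 9 of 9 epididymal and 4 of 5 epithelial markers lower, and 12 of 12 skeletal muscle and 7 of 8 white adipocyte markers higher. Their part in the interaction was not tested. The 13 genes called for genotype on both diets were 59.1% of the 22 and 65.0% of the 20, where shared calls were 26.5% and 58.9% of all genes called. Of the 13, 3 (Gpx4, Gstt2 and Sod3) went the same way and 10 opposite ways, where 48.3% of the 1156 genes called on both diets over the whole array went the same way. These comparisons share no array. The second Gpx4 probe set did not pass for genotype on the high fat diet, and passed for the interaction at 0.55 ± 0.15.

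**Figure D5:**
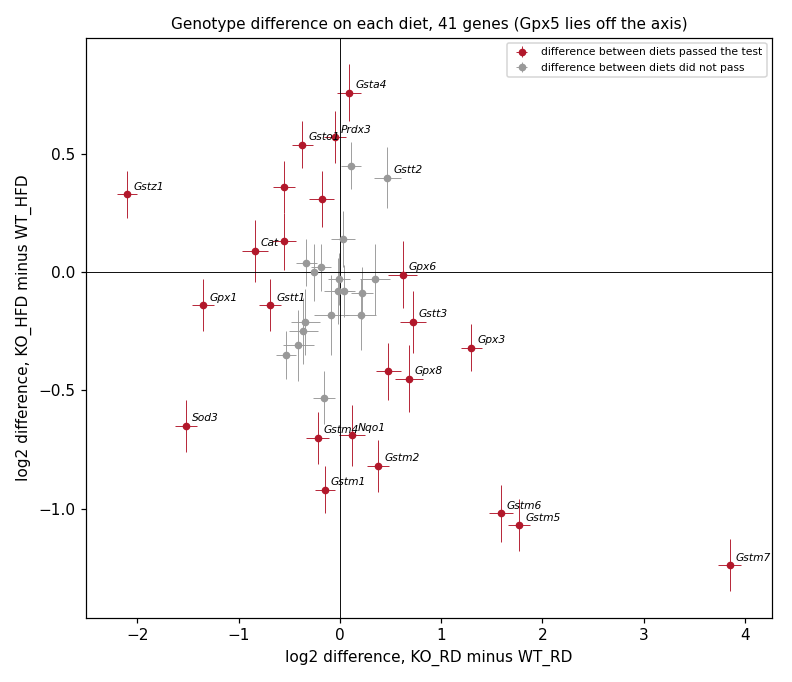
Genotype difference on the regular diet (horizontal axis, KO_RD minus WT_RD) against that on the high fat diet (vertical axis, KO_HFD minus WT_HFD), in log2 with SE bars, for 41 genes, red where the interaction passed the test. Gstm5, Gstm6 and Gstm7 lie at the lower right, higher in the knockout on regular diet and lower in it on high fat diet, while Gstz1 lies at the upper left and Sod3 at the lower left.

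Genotype on the high fat diet and the antibody, which also share no array, had 11 called genes in common, 55.0% of the 20 and 50% of the 22. Over all genes called, the shared ones were 55.0% of those for genotype on the high fat diet and 24.4% of those for the antibody. Of these, 8 (Gclm, Gsta4, Gstk1, Gstm2, Gstm6, Gstt2, Prdx3 and Sod3) went the same way and 3 (Gpx3, Gpx8 and Gstm5) opposite ways. Over the whole array 90.9% of the 1079 genes called in both went the same way. Brown fat and muscle markers moved beside these genes in both comparisons. Of 8 brown fat markers, 7 were higher in KO_HFD than in WT_HFD and 8 with the antibody. All 12 skeletal muscle markers were higher in each, at a mean level of 10.60 and 10.73 in KO_HFD against 5.62 and 5.83 in WT_HFD, and 10.96 and 10.98 with the antibody against 5.66 and 5.71 with IgG. Macrophage markers were lower, 7 of 11 and 11 of 11, at 9.59 and 9.67 with the antibody against 11.48 and 11.52 with IgG. Hepatocyte markers were lower with the antibody in 8 of 9, at 6.66 on both arrays against 8.21 and 8.39 with IgG. The part of these cell types in the detoxification differences was not tested.

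The wider pathway was read from lists chosen with earlier results of these data known. Their counts stand beside the shares of all genes that passed. These were 24.0% for KO_RD against WT_RD, 10.8% for KO_HFD against WT_HFD and 24.3% with the antibody. For diet they were 10.8% in wild type and 17.3% in the knockout. Of 12 genes that supply NADPH, which glutathione and thioredoxin reductases consume, 6 were lower and 2 higher in KO_RD than in WT_RD, and 6 higher and 2 lower in KO_HFD than in WT_HFD. Me1, malic enzyme, fell by 1.25 ± 0.11 in KO_RD and rose by 0.77 ± 0.11 in KO_HFD. Idh2, the mitochondrial isocitrate dehydrogenase, rose by 0.68 ± 0.10 in KO_HFD against WT_HFD. The diet lowered 6 of the 12 and raised 1 in wild type, and raised 8 with 0 lower in the knockout. With the antibody 4 rose, among them Me3 by 1.71 ± 0.15, and 3 fell, among them Me1 (-0.85 ± 0.11).

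Other detoxification enzymes were mostly lower in KO_RD, 13 of 22 with 2 higher, and rose with diet in the knockout, 14 with 2 lower. Aldh1a1, the retinaldehyde dehydrogenase, had the Gstm7 pattern, with 10.45 and 10.53 in KO_HFD, 11.70 and 11.81 in WT_HFD, 11.43 and 11.26 in KO_RD, and 9.29 and 9.51 in WT_RD. Mgst3, a microsomal glutathione transferase, fell by 1.67 ± 0.12 in KO_RD and rose by 1.01 ± 0.12 with the antibody. Of 14 thioredoxin and methionine sulfoxide genes, 7 were lower and 0 higher in KO_RD, and 9 rose and 1 fell with diet in the knockout. Glrx2, the mitochondrial glutaredoxin, was lower in KO_RD (-1.0 ± 0.10), and 0.38 and 0.46 higher in KO_HFD and with the antibody. White adipocyte markers moved beside the falls in KO_RD, 7 of 8 being lower there, at a mean level of 10.74 and 10.86 against 12.32 and 12.37 in WT_RD, and their part was not tested.

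Among 6 NRF2 regulators, 3 were lower in KO_RD than in WT_RD and 2 higher with the antibody, where 24.0% and 24.3% of all genes passed. Nfe2l2, which encodes NRF2, fell by 0.58 ± 0.11 in KO_RD, rose by 0.47 ± 0.11 with diet in the knockout and rose by 0.56 ± 0.11 with the antibody. Bach1, the repressor that competes for the same element, fell by 1.96 ± 0.15 in KO_RD, and was also lower with the diet in wild type (-1.12 ± 0.15). Of 15 genes of glutathione supply and turnover, 5 were higher and 1 lower in KO_RD, 1 each way in KO_HFD against WT_HFD, and 3 higher and 2 lower with the antibody. Over all genes 24.0%, 10.8% and 24.3% passed in these comparisons, and lists this small give no result about the pathway. Cth, which makes cysteine from cystathionine, fell by 1.38 ± 0.14 with the antibody and by 1.04 ± 0.14 in KO_HFD against WT_HFD, and rose by 1.32 ± 0.14 with the diet in wild type.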

How the data were processed

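Each of 12 samples of mouse RNA was run on its own Affymetrix array. The deposited values are log2 expression values per probe set, made by the authors with RMA in Partek per the submitters' processing notes, with versions not given in the sources used here. RMA compresses folds near background, and no detection calls were used. GEO's annotation of the platform named 1 gene for 34958 of the 45101 probe sets, and for the 9012 genes with several the probe set brightest on average over all arrays stood for the gene. Of 18194 genes, 18032 matched the GRCm38.p6 gene table by ID.

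Differences were fitted in R 4.3.3 with limma 3.58.1 as 6 group means, and eBayes allowed the variance to follow the mean level. Tests were two-sided, p-values were adjusted by Benjamini and Hochberg across the 18194 genes, and 0.05 was the threshold. Residual degrees of freedom were 6 and prior ones 20.4. The fit was tested on simulated data. Precision is limited by the number of arrays, and called detoxification genes had SEs between 0.10 and 0.17 between groups. The detoxification genes and all lists were chosen with earlier results of these data known. All 42 genes are accounted for. Array values are given for an antioxidant core and for up to 5 called genes per direction and comparison, and list genes are among the 4 with the smallest p. Protein sequences were not used here. Alternatives were eBayes without a trend, leaving out dim genes (below the 40th percentile), averaging the probe sets of each gene, using other probe sets, quantile normalization over all arrays, arrays centred on their medians, only the arrays of an experiment, a replicate block and leaving out each array. In the last case the remaining array is assumed to have the spread of other groups. Of the 42 genes, 17 had several probe sets. For 12 the probe set used had an a_at (Cat, Gsta2, Gstm6, Gsto2, Gstp1, Gstz1, Prdx2 and Txnrd1), s_at (Gclc and Gstm3) or x_at suffix (Gpx4 and Gss). Whether probe sets also measured related genes was not tested.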

Additional observations from a re-analysis of the deposited data

Results flagged for a closer look

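For 24 of the 42 genes the genotype difference itself differed between the diets (interaction of genotype and diet, limma adjusted p at most 0.0345, SEs 0.14 to 0.20). The difference on the high fat diet minus that on the regular diet was negative for 13. These were Gpx5 at -6.95, Gstm7 at -5.09, Gstm5 at -2.84, Gstm6 at -2.62, Gpx3 at -1.62, Gstm2 at -1.19, Gpx8 at -1.14, Gstt3 at -0.93, Gclm at -0.89, Nqo1 at -0.81, Gstm1 at -0.78, Gpx6 at -0.63 and Gstm4 at -0.48. It was positive for 11, namely Gstz1 at 2.42, Gpx1 at 1.21, Cat at 0.93, Gsto1 at 0.92, Gstk1 at 0.91, Sod3 at 0.86, Gsta3 at 0.68, Gsta4 at 0.67, Prdx3 at 0.63, Gstt1 at 0.56 and Sod1 at 0.50. The calls of Gpx6, Gstm4, Gstt1 and Sod1 were each lost when 1 array was left out (adjusted p up to 0.104, 0.138, 0.117 and 0.228). For Gpx6 this was WT_RD replicate b, WT_HFD replicate b, KO_RD replicate b or either KO_HFD array. For Gstm4 it was either WT_RD array, WT_HFD replicate b, KO_RD replicate a or KO_HFD replicate a. For Gstt1 it was WT_RD replicate a, WT_HFD replicate a, KO_RD replicate b or KO_HFD replicate b, and for Sod1 these 4 or WT_RD replicate b. After quantile normalization applied again, Cat stood at 0.45 and Prdx3 at 0.34 (limma adjusted p = 0.0834 and 0.0505). The second Gstm7 probe set gave -0.50 and did not pass (limma adjusted p = 0.0792 over all probe sets). Nor did the second Gclm probe set, at -0.60 (limma adjusted p = 0.133 over all probe sets). Gpx4 did not pass on the probe set used (0.18), but its second, equally bright one gave 0.55 ± 0.15 (limma adjusted p = 0.01 over all probe sets).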

How the results depend on the processing

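The number of the 42 genes called stayed within 1.5 times its value under every alternative that kept all 12 arrays or the arrays of an experiment. Leaving out 1 array gave 13 to 17 for genotype on the high fat diet (20 with all arrays), 12 to 16 for the antibody (22) and 11 to 15 for diet in wild type (17), while all called genes numbered 1296 to 1679 for diet in wild type (1966) and 2035 to 2710 for diet in the knockout (3150). The counts fell to 13 without WT_HFD replicate a or KO_HFD replicate b, to 12 without IgG replicate b, to 14 without ATGF replicate a and to 11 without WT_RD replicate b. Those all-gene lows came without WT_RD replicate a and KO_HFD replicate b. Of 128 called differences, 82 held without any 1 array and 46 did not. The Gclm difference for diet in wild type was 0.69 without WT_RD replicate a, against 0.45. Quantile normalization turned 2 differences for genotype on regular diet, Prdx2 to 0.02 with its call ended and Prdx3 to 0.24. Calls ended with the sign kept were counted over the 252 differences of the 42 genes in 6 comparisons. They were 18 without the trend, 13 with probe sets averaged, 12 in the arrays of the experiment only, 9 with quantile normalization and 4 with centred arrays. Among the 9 were the antibody calls of Gclc, Gsr, Gstm6, Gstt3 and Hmox1 (then 0.31, 0.28, -0.27, 0.30 and -0.35). Other probe sets ended 20 of 162 with the sign kept. Changes of sign are counted apart from these. Other probe sets of a gene turned 10, namely Sod2 to -0.19 and Txnrd1 to 0.08 and 0.06 for genotype on high fat diet, Prdx2 to -0.40, Prdx4 to 0.02, Sod1 to -0.07 and Sod2 to 0.74 for the antibody, Sod1 to -0.07 for diet in the knockout, and Sod1 to -0.02 and -0.06 for the interaction. Except for Prdx2 and Sod2 with the antibody, these turned differences had passed on the probe set used and did not pass on the other. The cause was not tested. Small changes of sign of differences that passed in neither setting are not counted. With the replicate block, 22, 20, 22, 17 and 24 genes were called in the comparisons of 2 groups, as against 22, 20, 22, 17 and 23, in the order genotype on regular diet, genotype on high fat diet, antibody, diet in wild type and diet in the knockout. Over genes, the a minus b differences of 2 groups correlated at -0.161 to 0.169, so the letters were not taken to pair arrays.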

Other observations

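Of 10 genes that produce superoxide and peroxide, 6 fell and 2 rose with the antibody, where 24.3% of all genes passed. Cybb and Cyba, subunits of the phagocyte NADPH oxidase, fell by 1.46 ± 0.13 and 1.22 ± 0.12, and Maoa, a mitochondrial amine oxidase that releases hydrogen peroxide, fell by 1.27 ± 0.12 (SE, limma adjusted p at most 8.02e-09). The macrophage markers fell beside them, 11 of 11, and their part was not tested. In KO_RD against WT_RD, 5 of the 10 fell and 0 rose, where 24.0% of all genes passed. Among those that fell was Xdh, xanthine dehydrogenase, by 0.98 ± 0.10.

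Of 10 genes of selenoprotein synthesis and selenium supply, 3 were lower and 0 higher in KO_RD than in WT_RD, where 24.0% of all genes passed, and the median difference of the 10 was -0.10. With diet in the knockout 3 rose, where 17.3% of all genes passed. Selenow and Selenop, the selenium transport protein, fell by 1.46 ± 0.11 and 0.75 ± 0.10 in KO_RD against WT_RD, and rose by 1.22 ± 0.11 and 0.97 ± 0.10 in KO_HFD against KO_RD. Gpx1 and Gpx4, which contain selenocysteine, were lower in KO_RD as well, while Gpx3, also a selenoprotein, was higher there.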
